A study of Rattus norvegicus with 83 samples.

Results

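The genes of mitosis and chromosome segregation code for the kinases, cyclins, spindle, kinetochore and condensin proteins with which a cell in the G2 and M phases of its cycle separates its copied chromosomes. A list of 52 such genes was looked up by symbol in the deposited count table of 17483 gene symbols, and 47 had a row. The other 5, Spc24, Anln, Ncapd2, Ncapg and Ncaph, were not analysed here. The 47 genes were followed across 10 groups of rat libraries, where most of them were about 2-fold higher in 3 groups labelled pup day 16 (vehicle and both doses of methimazole) than in the other 7 groups.

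Entry into mitosis is driven by CDK1 with cyclin B, and the kinases PLK1, Aurora A and Aurora B then shape the spindle and correct its attachments. The spindle assembly checkpoint holds anaphase back until kinetochores are attached, after which CDC20 turns on the anaphase-promoting complex, a ubiquitin ligase that marks cyclin B and securin for destruction. Many of these genes are transcribed as a programme that peaks in G2 and M, so that in bulk RNA their summed level is often read as a measure of how many cells are dividing. A bulk measurement cannot tell fewer dividing cells from less of this RNA in each dividing cell.

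The shared timing of these genes is known to rest on promoters that carry CCAAT boxes, bound by NF-Y, and a cell cycle homology region (CHR), bound by the DREAM and MuvB-B-MYB complexes. The RefSeq table of rat promoters (GRCr8, 250 bases before to 50 after the start of each gene) held 47 of the 52 listed genes, although not the same 47 as the count table, since Tpx2, Ccna2, Ube2c, Aurkb and Racgap1 were not matched. A CHR, searched on both strands as TTTGAA or TTCGAA, was present in 37 of these 47 promoters (78.7%) and in 19.5% of all 27457 promoters. The CCAAT letters, again on both strands, were present in 37 of 47 (78.7%) against 37.7% of all promoters, and both motifs together in 31 of 47 (66.0%) against 7.83%. Letters bound by E2F factors (TTGGCGC, also as TTCCCGC, also as TTGCCGC, also as TTCGCGC) were in 8 of 47 (17.0%, against 10.0%), and a TATA box (TATAAA) in 2 of 47 (4.26%, against 14.3%). Among the 12281 promoters of genes in the count table the shares were 14.8% for a CHR, 37.5% for CCAAT and 6.15% for both. There they were 14.8% for the E2F letters, near the 17.0% of the listed genes, and 9.67% for a TATA box. A match describes the letters only and is not evidence of a bound site.

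The promoters below were chosen after the expression values were seen. The first 6 belong to genes of 4 of the 8 role classes described later and show how the motifs lie ahead of the start, Aurka is a gene whose full 300-base window held neither motif, and Cdc25b is the gene whose level ran the other way. Each run is the 150 bases before the start, 5′ to 3′ on the strand of the gene, with CHR and CCAAT letters of either strand in capitals and the rest in lower case.
Cdk1 (chr20:19265143-19265292, plus strand): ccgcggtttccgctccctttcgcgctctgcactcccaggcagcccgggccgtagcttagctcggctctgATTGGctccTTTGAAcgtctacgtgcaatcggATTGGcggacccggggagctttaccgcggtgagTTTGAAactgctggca
Ccnb2 (chr8:79981659-79981808, minus strand): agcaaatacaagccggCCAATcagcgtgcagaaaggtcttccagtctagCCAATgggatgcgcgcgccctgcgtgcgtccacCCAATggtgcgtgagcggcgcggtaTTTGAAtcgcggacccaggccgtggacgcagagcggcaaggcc
Cks1b (chr2:177135334-177135483, minus strand): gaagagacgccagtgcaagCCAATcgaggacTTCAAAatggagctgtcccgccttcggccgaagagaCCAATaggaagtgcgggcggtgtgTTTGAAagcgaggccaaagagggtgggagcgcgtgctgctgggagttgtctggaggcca
Cdc20 (chr5:137255800-137255949, minus strand): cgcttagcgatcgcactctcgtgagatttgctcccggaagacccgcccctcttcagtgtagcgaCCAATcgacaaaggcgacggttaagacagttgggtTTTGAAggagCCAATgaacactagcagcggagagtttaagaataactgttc
Prc1 (chr1:143659331-143659480, plus strand): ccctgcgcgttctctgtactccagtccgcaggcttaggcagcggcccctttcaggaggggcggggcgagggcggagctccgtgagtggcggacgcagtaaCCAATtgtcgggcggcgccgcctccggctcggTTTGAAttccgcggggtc
Mki67 (chr1:199952594-199952743, minus strand): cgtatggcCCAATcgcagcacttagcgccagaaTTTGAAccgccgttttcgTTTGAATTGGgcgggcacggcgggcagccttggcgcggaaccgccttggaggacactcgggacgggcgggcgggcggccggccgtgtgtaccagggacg
Aurka (chr3:181560770-181560919, minus strand): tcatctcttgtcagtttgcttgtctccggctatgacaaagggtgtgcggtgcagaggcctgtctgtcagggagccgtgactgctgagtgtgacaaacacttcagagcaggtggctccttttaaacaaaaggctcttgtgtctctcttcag
Cdc25b (chr3:138860023-138860172, plus strand): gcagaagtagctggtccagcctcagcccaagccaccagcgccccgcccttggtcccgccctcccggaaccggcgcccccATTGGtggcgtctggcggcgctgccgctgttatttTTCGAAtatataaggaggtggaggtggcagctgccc
In the Cdk1 run the 2 CHR matches lie 72 and 16 bases ahead of the start, and in Cdc20 the only match lies 51 bases ahead of it. Cdc25b held 1 CHR and 1 CCAAT match, so these letters alone did not part the gene that ran the other way from the rest.

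The libraries came from offspring of time-mated Sprague-Dawley rat dams and were prepared with BRB-seq, a pooled method that barcodes and counts the 3′ ends of polyadenylated RNA. Per the labels' protocols the dams were dosed daily by gavage from gestational day 7 with corn oil (vehicle), methimazole at 8 or 16 mg/kg body weight per day (MMI8 and MMI16) or amitrole at 25 or 50 mg/kg body weight per day (Ami25 and Ami50), and birth was expected on gestational day 23. Both compounds lower thyroid hormone by inhibiting thyroid peroxidase, and the study asked how such exposure changed the developing organ. The gestational day 21 groups (GD21) held 6 libraries each, and the pup day 16 groups (PD16) held 10 vehicle, 10 MMI8, 10 MMI16, 11 Ami25 and 12 Ami50 libraries. The labels name no litter or animal, so p-values reflect the variation among these libraries only, which may share litters.

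The labels go against the data in 2 respects that touch every result. The tissue is labelled testis, but 14 testis genes together had 401 of 57573311 counts, while 9 adrenal cortex genes summed to between 11708 and 66345 CPM (counts scaled to 1000000 per library), and 8 adrenal medulla genes to between 733 and 2223 CPM. None of the genes of these adrenal lists was at 0 over all libraries. The embryonic share of globin counts ran from 11.6% to 19.4% (median 14.1%) in PD16 vehicle, 13.5% to 22.9% (median 16.1%) in MMI8 and 8.78% to 22.9% (median 16.8%) in MMI16, but from 0.0994% to 0.325% (median 0.180%) in PD16 Ami25, 0.0472% to 0.368% (median 0.130%) in PD16 Ami50 and 0.0891% to 0.242% (median 0.157%) in GD21 vehicle. Embryonic globins are made by the earliest red cells, and their share is highest in the 3 groups in which the mitosis genes are highest. At PD16 an effect of amitrole therefore cannot be told apart from one of developmental stage. The share also runs against the labelled order of the vehicle groups, so each difference between stages is given from GD21 to PD16 as labelled, and its direction would turn if those labels were exchanged, which was not tested. A further point touches PD16 Ami50 alone. The label names a male organ, but the Y-linked gene Eif2s3y was under 10 CPM in 8 of these 12 libraries. In GD21 vehicle it ran from 58.2 to 70.6 CPM. Whether the sex of the animals differed was not tested. The GD21 libraries held 495369 to 1627114 counts each, with a median of 963356, and the PD16 libraries 202270 to 1186973, with a median of 492083 at which 1 count is 2.03 CPM. The 47 genes together had between 751 and 5934 counts per library.

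Summed over the 47 genes, the level fell into 2 separate ranges of libraries. The 30 PD16 libraries of vehicle, MMI8 and MMI16 ran from 4586 to 6186 CPM (median 5184), and the 23 PD16 libraries of Ami25 and Ami50 from 2177 to 3165 CPM (median 2900.1). The 30 GD21 libraries of all groups ran from 2015 to 3147 CPM (median 2364). No amitrole or GD21 library reached the lowest PD16 vehicle or methimazole library.

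**Figure D1:**
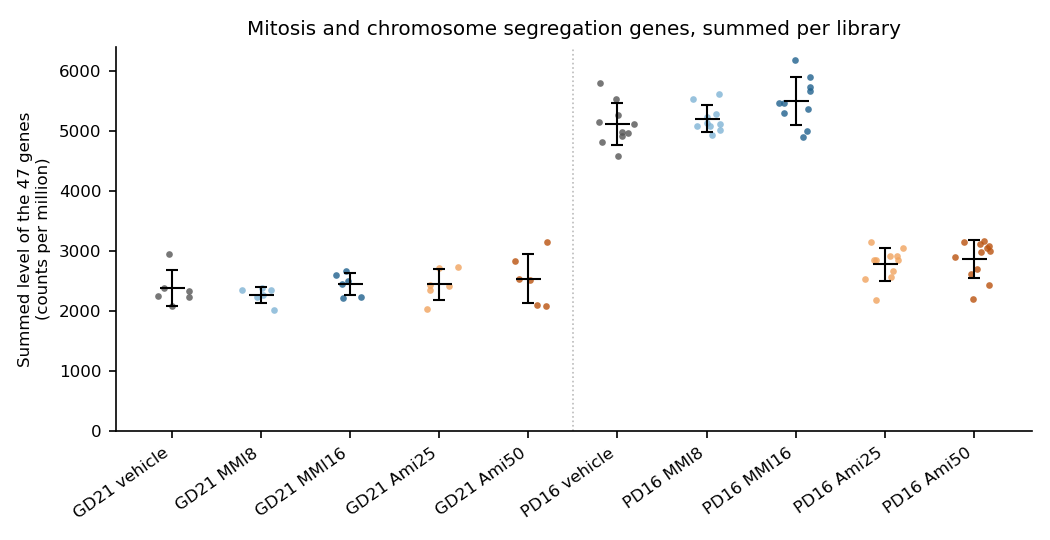
Summed level of the 47 genes in CPM (vertical axis) in each of the 83 libraries, by labelled stage and treatment (horizontal axis); points are libraries, bars the group mean and SD. The PD16 vehicle, MMI8 and MMI16 libraries lie between 4586 and 6186 CPM and all other libraries between 2015 and 3165 CPM.

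By group the mean ± SD was 5110.4 ± 349 CPM in PD16 vehicle (n = 10), 5201 ± 221 in MMI8 (n = 10), 5494 ± 394 in MMI16 (n = 10), 2772 ± 273 in Ami25 (n = 11) and 2866 ± 312 in Ami50 (n = 12). At GD21 it was 2372 ± 300.5 CPM in vehicle, 2265 ± 135 in MMI8, 2439 ± 184 in MMI16, 2441 ± 256 in Ami25 and 2534 ± 411 in Ami50 (n = 6 each). The ranges of the 5 GD21 groups overlapped, and the PD16 amitrole means lay above every GD21 mean. Each library carries a number, and the numbers fall into 4 series (1 to 20, 21 to 40, 41 to 56 and 57 to 90), which the labels do not call batches. Within every series that held them, the lowest PD16 vehicle or methimazole library was above the highest PD16 amitrole library, and in the series 57 to 90 it was also above the GD21 libraries. Globin RNA made up 3.81% of the vehicle total at PD16 and 8.86% of the Ami50 total, and with globins left out of the totals the summed means were 5313 and 3146 CPM.

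Over single genes the same order of groups held. Of the 43 genes tested in the fit over both stages, 41 had a mean CPM in each of the PD16 vehicle, MMI8 and MMI16 groups that was above the mean in each of the other 7 groups, an order looked for after the values were seen. The same order was present in 28.0% of all 6287 genes tested, and its reverse in 16.2%. The exceptions were Ube2s, an E2 ubiquitin-conjugating enzyme of the anaphase-promoting complex, and Hmgb2, a chromatin protein of dividing cells.

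**Figure D2:**
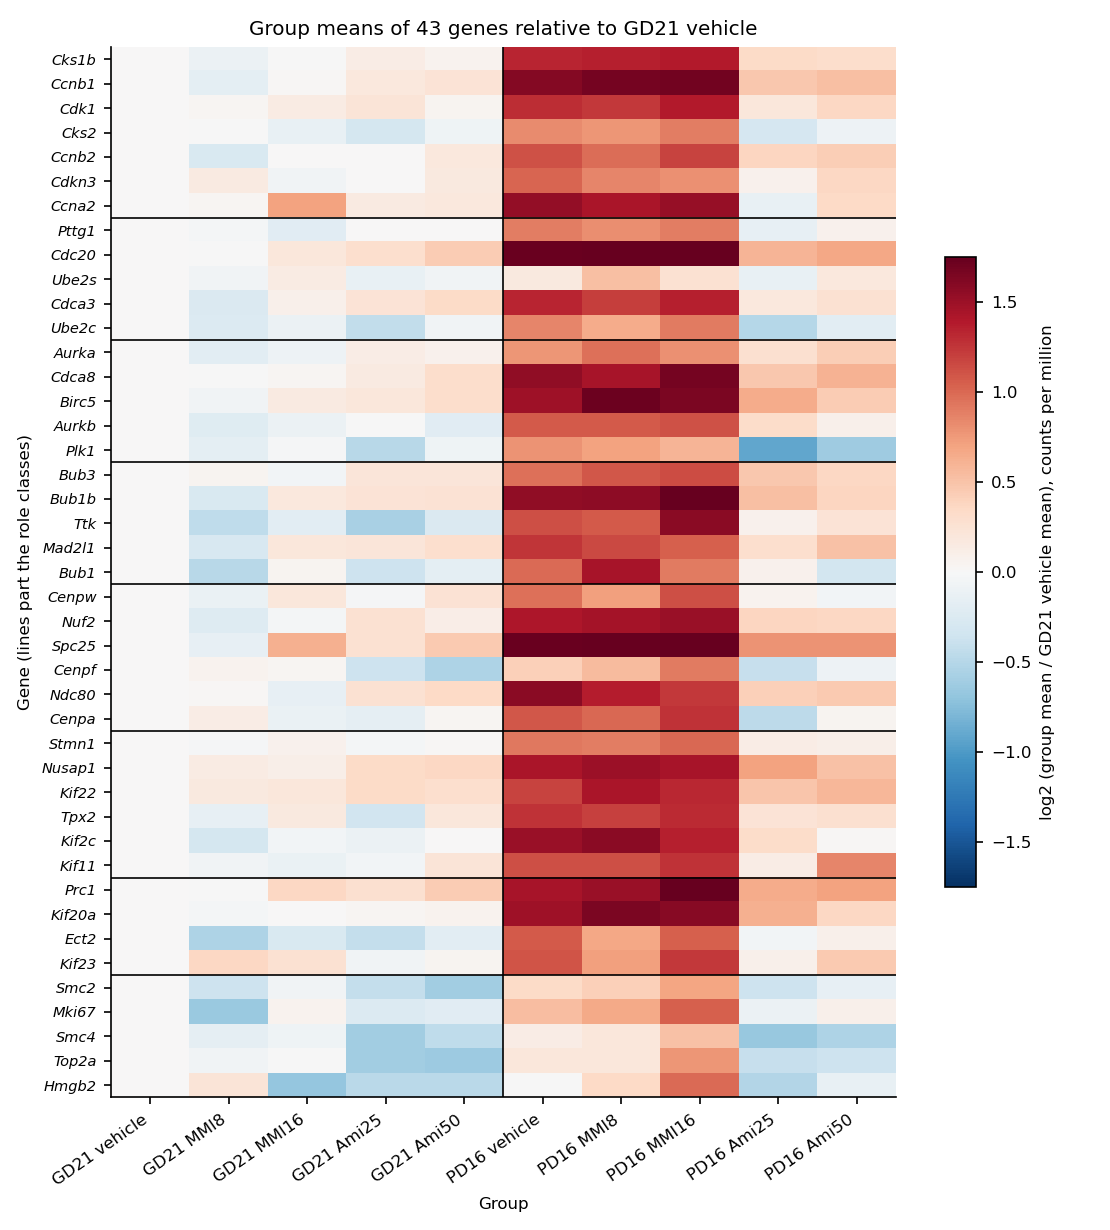
Mean level of each of 43 genes (rows, parted by role class) in each group (columns), as log2 of the group mean over the GD21 vehicle mean, on CPM. The PD16 vehicle, MMI8 and MMI16 columns are above GD21 vehicle for nearly all genes, and the bottom class (condensin and chromatin genes) and Ube2s stand out by their paler rows.

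At PD16, 38 of the 40 genes tested fell in Ami25 against vehicle and 34 of 40 fell in Ami50, and none of the 40 rose. Cdc25b, which was higher in both amitrole groups, was under the count filter and is not among the 40. A low gene can pass that filter through groups in which it is high. Over all 4906 genes tested, 27.5% were called lower in Ami25 and 26.5% in Ami50, and 27.9% and 27.1% higher (edgeR quasi-likelihood test, Benjamini-Hochberg adjusted p under 0.05). The median log2 fold change of the 40 genes was -0.91 in Ami25 and -0.87 in Ami50, where that of all genes was 0.01 and 0.02. The CPM ranges of vehicle and Ami50 did not overlap for 13 of the 40 genes (8.76% of all genes lay wholly above in vehicle), and those of vehicle and Ami25 for 11 (8.74%). Between Ami50 and Ami25, 0 of 40 genes were called (0% of all genes, and 0 by DESeq2), with 1 at an unadjusted p under 0.05, and 37 of 40 intervals of the difference lay within 2-fold in either direction.

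**Figure D3:**
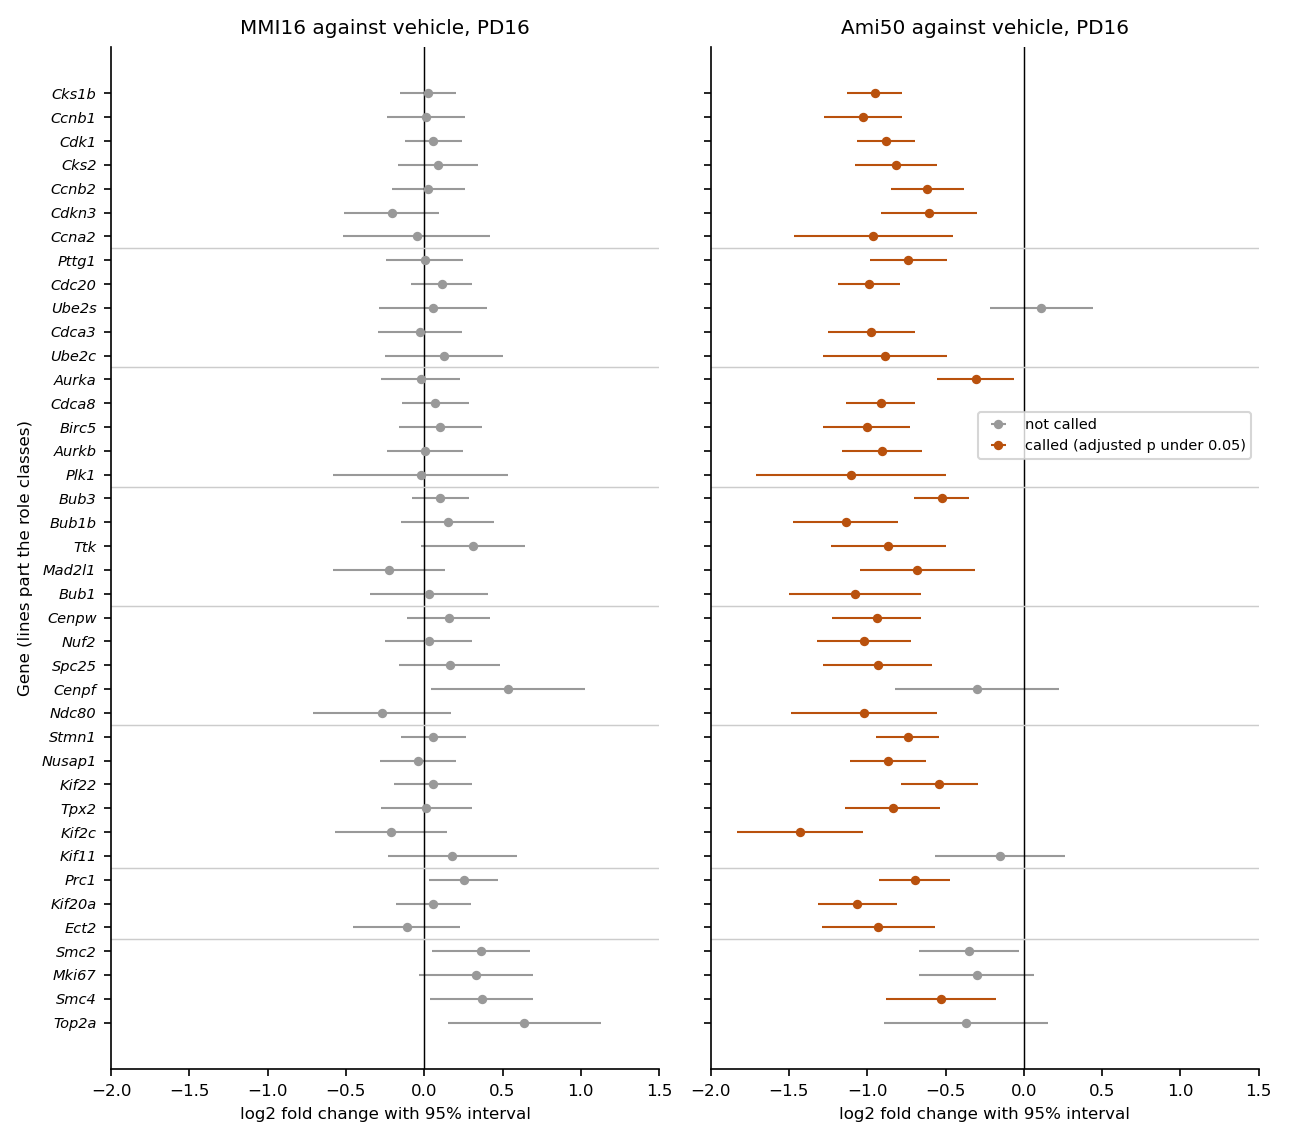
Log2 fold change with its 95% interval (horizontal axis) for each of 40 genes (vertical axis, parted by role class) in MMI16 and in Ami50 against PD16 vehicle; orange points passed an adjusted p under 0.05 and grey points did not. All points of the MMI16 panel are grey and centre near 0, and 34 of 40 points of the Ami50 panel are orange and left of 0.

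In the class of CDK1, cyclins and their regulators, the genes that passed the count filter changed in the same direction. Cdc25b and Cdc25c of this class were under the filter at PD16. With no filter Cdc25b went the other way (log2 fold change 1.87 in Ami25, 1.63 in Ami50 and -1.64 between stages in vehicle), and Cdc25c did not pass. All 7 genes of this class that were tested fell in both amitrole groups at PD16, with a median log2 fold change of -1.04 in Ami25 and -0.88 in Ami50, and all 7 rose between GD21 and PD16 in vehicle (24.4% of all genes were called higher there). Cdk1, the kinase that starts mitosis, was measured at 197 to 309.6 CPM (median 236) in PD16 vehicle, 202 to 291 CPM (median 227) in MMI8, 237 to 293 CPM (median 259.6) in MMI16, 89.0 to 133 CPM (median 114) in Ami25 and 97.8 to 159.8 CPM (median 130.2) in Ami50. In GD21 vehicle it ran from 79.2 to 121 CPM (median 101). No Ami25, Ami50 or GD21 vehicle library reached the lowest PD16 vehicle library. It was 1.84-fold lower (log2 fold change -0.88 ± 0.09, SE, edgeR adjusted p 1.26e-12) in Ami50 than in vehicle, and 2.25-fold higher (log2 fold change 1.17 ± 0.11, SE, edgeR adjusted p 2.31e-14) in PD16 than in GD21 vehicle. Ccnb1, the cyclin B1 that activates CDK1, ran from 288 to 474 CPM (median 379.9) in PD16 vehicle, 91.2 to 285 CPM (median 162) in Ami50 and 100.1 to 139 CPM (median 128) in GD21 vehicle. Its vehicle range at PD16 was likewise clear of the other groups named. The change was 2.04-fold lower (log2 fold change -1.03 ± 0.12, SE, edgeR adjusted p 1.64e-10) in Ami50 and 2.77-fold higher (log2 fold change 1.47 ± 0.17, SE, edgeR adjusted p 5.73e-12) between stages in vehicle. Cks1b, a small protein that binds cyclin-dependent kinases, ran from 325 to 497 CPM (median 397) in PD16 vehicle, 171 to 229 CPM (median 189) in Ami50 and 130.3 to 202 CPM (median 155) in GD21 vehicle, with no overlap. It was 1.93-fold lower (log2 fold change -0.95 ± 0.09, SE, edgeR adjusted p 1.59e-14) in Ami50 and 2.32-fold higher (log2 fold change 1.21 ± 0.10, SE, edgeR adjusted p 4.13e-17) between stages. Its paralog Cks2 was 1.76-fold lower in Ami50, Ccnb2 (cyclin B2) 1.53-fold, Cdkn3 (a phosphatase that acts on cyclin-dependent kinases) 1.52-fold and Ccna2 (cyclin A2, of S and G2 phase) 1.95-fold.

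**Figure D4:**
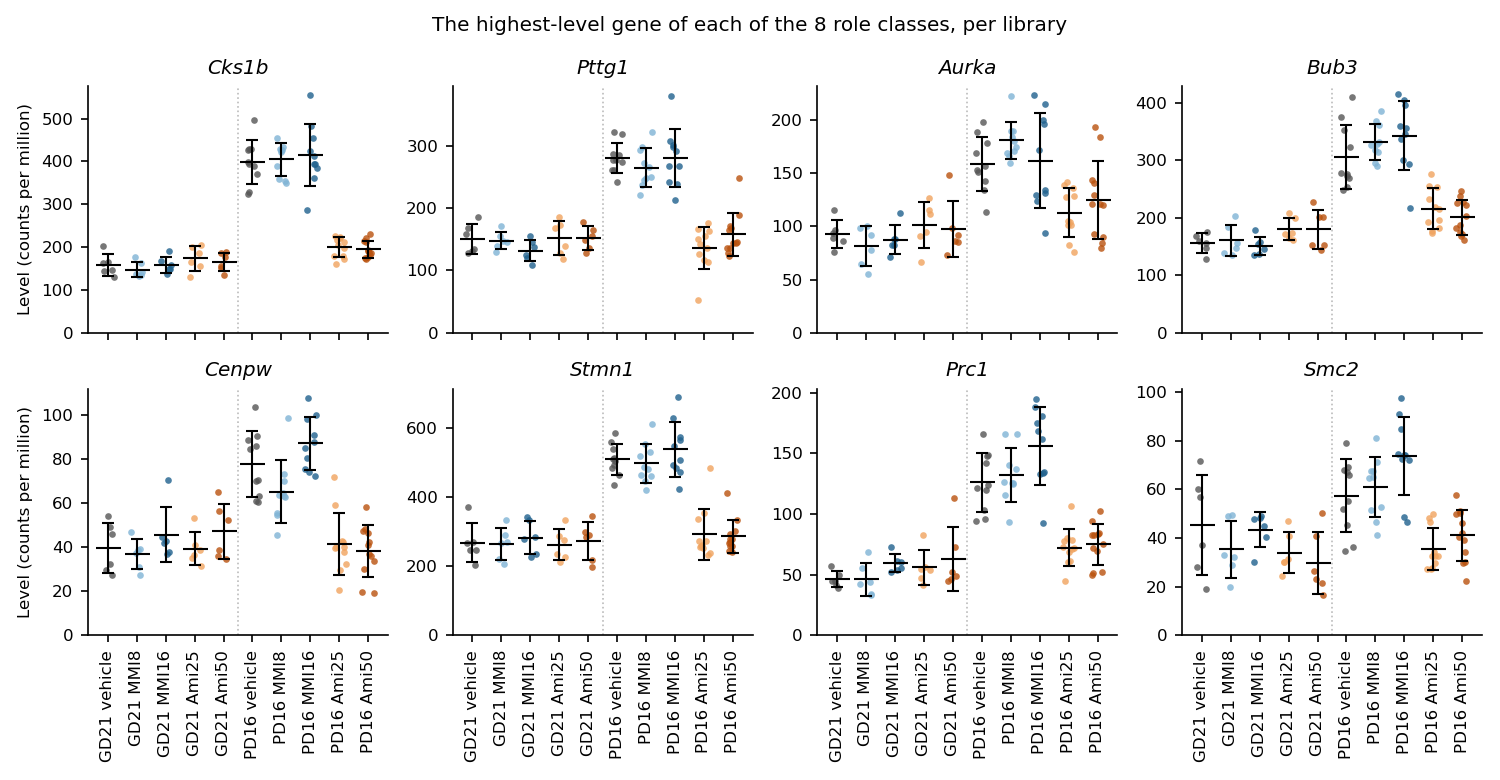
Level in CPM (vertical axes) of the gene with the highest mean in each of the 8 role classes, in all 83 libraries by group (horizontal axes); points are libraries, bars the group mean and SD. Cks1b shows 2 separate ranges, at or above 287 CPM in PD16 vehicle, MMI8 and MMI16 and at or below 229 CPM elsewhere, and the other 7 genes overlap.

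Among the partners of the anaphase-promoting complex, 4 of 5 genes fell in each amitrole group and 4 of 5 rose between stages in vehicle, and Ube2s did neither. Cdc20, the activator that the checkpoint holds back, ran from 169 to 288 CPM (median 225) in PD16 vehicle, 72.0 to 149.8 CPM (median 114) in Ami50 and 61.8 to 78.2 CPM (median 70.5) in GD21 vehicle, with the PD16 vehicle libraries clear of both. It was 1.98-fold lower (log2 fold change -0.99 ± 0.10, SE, edgeR adjusted p 4.15e-13) in Ami50 and 2.99-fold higher (log2 fold change 1.58 ± 0.14, SE, edgeR adjusted p 2e-16) between stages. Pttg1, the securin that keeps separase inactive, ran from 243 to 322 CPM (median 277) in PD16 vehicle and 124 to 249 CPM (median 145) in Ami50, where the ranges overlapped, and from 53.0 to 176 CPM (median 142) in Ami25, where they did not. Its fold was 1.67 lower in Ami50, 1.96 lower in Ami25 and 1.70 higher between stages in vehicle. Cdca3, a substrate of the complex, was 1.96-fold lower in Ami50, and Ube2c, the E2 enzyme that starts its ubiquitin chains, was 1.85-fold lower. Ube2s, the E2 that lengthens those chains, ran from 94.0 to 164 CPM (median 109) in PD16 vehicle, 54.8 to 224 CPM (median 109) in Ami50 and 78.3 to 139 CPM (median 97.7) in GD21 vehicle, and all 3 ranges overlapped. Its difference did not pass in Ami50 (log2 difference 0.11, 95% interval -0.22 to 0.44, edgeR adjusted p 0.591), in Ami25 (log2 difference -0.21, 95% interval -0.55 to 0.13, edgeR adjusted p 0.304) or between stages (log2 difference 0.06, 95% interval -0.28 to 0.40, edgeR adjusted p 0.812), and a change the size of that of Ube2c lay outside the Ami50 interval.

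All 5 mitotic kinases and chromosomal passengers fell in Ami25 and in Ami50 and rose between stages in vehicle, by amounts that differed among them. Aurka, the Aurora A kinase of centrosomes and spindle poles, ran from 114 to 199 CPM (median 155) in PD16 vehicle, 80.2 to 194 CPM (median 121) in Ami50 and 75.6 to 115 CPM (median 91.4) in GD21 vehicle, with overlap in both cases. It was 1.24-fold lower (log2 fold change -0.31 ± 0.12, SE, edgeR adjusted p 0.0311) in Ami50, the smallest of the 34 falls, and 1.55-fold higher (log2 fold change 0.63 ± 0.15, SE, edgeR adjusted p 0.000351) between stages. Cdca8, the borealin subunit of the chromosomal passenger complex, ran from 136 to 208 CPM (median 161) in PD16 vehicle and 40.8 to 142 CPM (median 77.7) in Ami50, with overlap. It was 1.88-fold lower (log2 fold change -0.91 ± 0.11, SE, edgeR adjusted p 1.35e-10). Birc5, the survivin subunit of that complex, ran from 88.9 to 164 CPM (median 125) and 34.0 to 102 CPM (median 56.0), also with overlap. It was 2.01-fold lower (edgeR adjusted p 7.15e-09). Both had PD16 vehicle levels above every GD21 vehicle library and rose 2.65-fold and 2.54-fold between stages. Aurkb, the Aurora B kinase of the same complex, was 1.87-fold lower in Ami50. Plk1, the Polo kinase, was 2.95-fold lower in Ami25, the largest fall of the 38, and 2.15-fold lower in Ami50.

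The spindle assembly checkpoint moved as a whole, with 5 of 5 genes lower in each amitrole group and 5 of 5 higher at PD16 than at GD21 in vehicle. Bub3, a kinetochore adaptor of the checkpoint, ran from 248 to 410.0 CPM (median 277) in PD16 vehicle, 161 to 247 CPM (median 195) in Ami50 and 129 to 176 CPM (median 158) in GD21 vehicle, with the PD16 vehicle libraries above all of both groups. It was 1.44-fold lower (log2 fold change -0.53 ± 0.09, SE, edgeR adjusted p 9.23e-07) in Ami50. Bub1b, the BubR1 subunit of the mitotic checkpoint complex, ran from 22.0 to 46.2 CPM (median 39.4) in PD16 vehicle and 9.23 to 29.7 CPM (median 16.7) in Ami50, with overlap. It was 2.20-fold lower (log2 fold change -1.14 ± 0.17, SE, edgeR adjusted p 4.32e-08). Ttk, the MPS1 kinase that starts checkpoint signalling, ran from 22.9 to 45.3 CPM (median 30.1) and 6.79 to 25.4 CPM (median 18.0), also with overlap. It was 1.82-fold lower (log2 fold change -0.87 ± 0.18, SE, edgeR adjusted p 6.11e-05). Between stages in vehicle these 3 rose 1.78-fold, 2.74-fold and 1.99-fold. Mad2l1, the MAD2 protein that captures CDC20, was 1.60-fold lower in Ami50, and the kinase gene Bub1 2.11-fold lower.

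Of the 5 centromere and kinetochore genes tested at PD16, 5 fell in Ami25 and 4 in Ami50, and 5 of 6 rose between stages in vehicle. Cenpw, a histone-fold protein of the inner kinetochore, ran from 60.6 to 104 CPM (median 77.5) in PD16 vehicle, 19.0 to 58.4 CPM (median 39.0) in Ami50 and 27.6 to 54.1 CPM (median 39.2) in GD21 vehicle, with no overlap of PD16 vehicle with either. It was 1.92-fold lower (log2 fold change -0.94 ± 0.14, SE, edgeR adjusted p 6.73e-08) in Ami50. Nuf2, of the NDC80 complex that holds microtubule ends, ran from 48.9 to 80.8 CPM (median 65.2) in PD16 vehicle and 21.7 to 48.5 CPM (median 31.1) in Ami50, without overlap. It was 2.03-fold lower (log2 fold change -1.02 ± 0.15, SE, edgeR adjusted p 3.77e-08). Spc25, of the same complex, ran from 36.3 to 86.6 CPM (median 60.9) and 14.1 to 57.1 CPM (median 29.7), with overlap. It was 1.91-fold lower (log2 fold change -0.93 ± 0.17, SE, edgeR adjusted p 6.63e-06). Spc25 had the largest rise of the 43 genes between stages in vehicle (2.99-fold), while Nuf2 rose 2.43-fold and Cenpw 1.78-fold. Ndc80, which names the complex, was 2.03-fold lower in Ami50. Cenpf, a large protein of the outer kinetochore, was 1.64-fold lower in Ami25 and did not pass in Ami50 (log2 difference -0.30, 95% interval -0.82 to 0.22, edgeR adjusted p 0.346) or between stages (log2 difference 0.31, 95% interval -0.27 to 0.90, edgeR adjusted p 0.392). Cenpa, the histone H3 variant of centromeres, was too low at PD16 to be tested there and rose 1.96-fold in the fit over both stages. It ran from 1.06 to 11.2 CPM in GD21 vehicle and from 6.50 to 29.6 CPM in PD16 vehicle. Cenpa may have passed the filter of that fit only through groups in which it is high, so its rise adds no support.

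Among spindle motors and microtubule proteins, 6 of 6 genes tested fell in Ami25, 5 of 6 in Ami50, and 6 of 6 rose between stages in vehicle. Stmn1, the microtubule-destabilising stathmin that neurons also make, ran from 436 to 587 CPM (median 509) in PD16 vehicle, 425 to 691 CPM (median 529.6) in MMI16, 241 to 411 CPM (median 275) in Ami50 and 205 to 373 CPM (median 258) in GD21 vehicle. The lowest vehicle and MMI16 libraries were above the highest Ami50 library. It was 1.67-fold lower (log2 fold change -0.74 ± 0.10, SE, edgeR adjusted p 6.04e-09) in Ami50 and 1.75-fold higher between stages. Nusap1, which bundles spindle microtubules near chromosomes, ran from 176 to 312 CPM (median 242) in PD16 vehicle and 66.6 to 165 CPM (median 137) in Ami50, without overlap. It was 1.83-fold lower (log2 fold change -0.87 ± 0.12, SE, edgeR adjusted p 9.93e-09). Kif22, a kinesin that binds chromosome arms, ran from 160.2 to 272 CPM (median 197) and 83.1 to 179 CPM (median 140.3), with overlap. It was 1.45-fold lower (log2 fold change -0.54 ± 0.12, SE, edgeR adjusted p 0.000157). Tpx2, the spindle activator of Aurora A, was 1.79-fold lower in Ami50, and Kif2c, a kinesin that depolymerises microtubules, 2.69-fold lower, the largest of the 34 falls. Kif11, the kinesin that pushes spindle poles apart, was 1.80-fold lower in Ami25 and did not pass in Ami50 (log2 difference -0.15, 95% interval -0.57 to 0.26, edgeR adjusted p 0.553), and the difference between the amitrole doses did not pass for it either.

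All 3 central spindle and cytokinesis genes tested at PD16 fell in both amitrole groups, and 4 of 4 rose between stages in vehicle. Prc1, which bundles antiparallel microtubules at the midzone, ran from 94.0 to 166 CPM (median 122) in PD16 vehicle, 92.7 to 195 CPM (median 165) in MMI16, 49.6 to 102 CPM (median 78.7) in Ami50 and 39.1 to 56.9 CPM (median 44.8) in GD21 vehicle. The vehicle libraries of the 2 stages did not overlap, and those of PD16 vehicle and Ami50 did. It was 1.62-fold lower (log2 fold change -0.70 ± 0.11, SE, edgeR adjusted p 3.45e-07) in Ami50 and 2.47-fold higher between stages. Kif20a, the kinesin that carries Aurora B to the midzone, ran from 68.0 to 138 CPM (median 90.3) in PD16 vehicle and 27.2 to 62.1 CPM (median 40.3) in Ami50, without overlap. It was 2.09-fold lower (log2 fold change -1.06 ± 0.13, SE, edgeR adjusted p 9.75e-11). Ect2, the exchange factor that activates RhoA for the cleavage furrow, ran from 23.1 to 64.6 CPM (median 45.7) and 13.6 to 36.9 CPM (median 21.4), with overlap. It was 1.91-fold lower (log2 fold change -0.93 ± 0.18, SE, edgeR adjusted p 1.32e-05). Kif23, the kinesin of centralspindlin, was under the count filter at PD16 and, in the fit over both stages, rose 1.90-fold in vehicle. It ran from 4.53 to 12.3 CPM in GD21 vehicle and from 4.33 to 37.5 CPM in PD16 vehicle. Like Cenpa, Kif23 may have passed the filter of that fit only through groups in which it is high.

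The condensin and chromatin genes of dividing cells had the fewest calls of the 8 classes between stages in vehicle and in Ami50, though not in Ami25. Between stages in vehicle edgeR called 0 of 5 (1 had an unadjusted p under 0.05, and DESeq2 called 0), against 36 of the other 38 genes, and in Ami50 1 of 4 fell. In Ami25, 3 of 4 fell. The class median of the log2 fold change was 0.11 between stages, -0.36 in Ami50 and -0.61 in Ami25, and whether these genes differed from the other classes was not tested. Smc2, a core ATPase of condensin, ran from 34.7 to 79.1 CPM (median 60.5) in PD16 vehicle, 22.2 to 57.7 CPM (median 41.4) in Ami50 and 19.0 to 71.6 CPM (median 46.9) in GD21 vehicle, with overlap throughout. It was 1.54-fold lower in Ami25 and did not pass in Ami50 (log2 difference -0.35, 95% interval -0.67 to -0.03, edgeR adjusted p 0.0607). Smc4, its partner, ran from 30.3 to 66.7 CPM (median 42.4), 15.9 to 36.6 CPM (median 29.3) and 19.8 to 58.9 CPM (median 40.7) in the same groups, and was 1.44-fold lower (log2 fold change -0.53 ± 0.17, SE, edgeR adjusted p 0.00884) in Ami50. That call was lost without the 8 Ami50 libraries in which the Y-linked gene Eif2s3y was under 10 CPM (log2 fold change -0.42, adjusted p 0.156, with 4 Ami50 libraries left). These 8 were all the Ami50 libraries of the number series 21 to 40 and 57 to 90. No library of any other group had Eif2s3y under 10 CPM. Mki67, which codes for the Ki-67 protein that coats mitotic chromosomes, ran from 32.3 to 82.0 CPM (median 52.7) in PD16 vehicle, 20.4 to 54.2 CPM (median 37.9) in Ami50 and 22.6 to 59.9 CPM (median 33.2) in GD21 vehicle, all overlapping. It was 1.49-fold lower in Ami25 and did not pass in Ami50 (log2 difference -0.30, 95% interval -0.67 to 0.07, edgeR adjusted p 0.166) or between stages (log2 difference 0.42, 95% interval 0.01 to 0.83, edgeR adjusted p 0.0907). The stage difference of Mki67 passed under 1 of the 10 alternatives, which left out libraries in which Alb, the albumin gene of liver, reached 200 CPM (log2 fold change 0.71, adjusted p 0.0223). Top2a, the topoisomerase that untangles chromosomes, ran from 21.5 to 68.0 CPM (median 38.5) in PD16 vehicle, 9.51 to 44.8 CPM (median 23.6) in Ami50 and 19.0 to 48.6 CPM (median 30.9) in GD21 vehicle, and did not pass in Ami50 (log2 difference -0.37, 95% interval -0.90 to 0.15, edgeR adjusted p 0.236) or between stages (log2 difference 0.11, 95% interval -0.47 to 0.69, edgeR adjusted p 0.791). Ki-67 and topoisomerase II are the usual markers of dividing cells, and here their fitted differences were smaller than those of Cdk1 or Ccnb1, a gap that was not tested.

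None of these genes passed the test at either dose of methimazole. Of the 40 tested at PD16, 0 were called in MMI8 (8.36% of all genes were) and 0 in MMI16 (8.11%), with 3 and 5 at an unadjusted p under 0.05, and DESeq2 called 0 in both. For MMI8 all 40 intervals lay within 2-fold in either direction, and the widest bounds allowed a 1.69-fold fall and a 1.76-fold rise. For MMI16, 38 of 40 lay within 2-fold, and the widest bounds allowed a 1.64-fold fall and, for Top2a, a 2.18-fold rise. The 4 condensin and chromatin genes were all above 0 in MMI16 (log2 differences from 0.33 to 0.64), and the smallest adjusted p of the 40 was 0.111, that of Top2a. Mki67 in MMI16 ran from 32.5 to 198 CPM (median 53.5), where the highest value came from the library with the fewest counts of all 83 (202270). Hmgb2, under the count filter at PD16, was called higher in MMI16 when the minimum count was 3 (log2 fold change 1.25, adjusted p 0.0315) and not with no filter (adjusted p 0.0707), at 0 to 45.5 CPM (median 17.9) against 1.35 to 19.4 CPM (median 7.61) in vehicle. Between MMI16 and MMI8, 0 of 40 were called (2.08% of all genes were, and DESeq2 called 0 of these genes), with 4 at an unadjusted p under 0.05. Set directly against MMI16, Ami50 had 37 of 40 genes lower and 0 higher (24.9% and 22.6% of all genes), and 6 of 40 had ranges that did not overlap (3.02%).

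At GD21 none of these genes passed the test under any treatment, and the intervals were wider. With 44 genes tested, 0 were called in MMI8, MMI16, Ami25 or Ami50 (0% of all 6236 genes in each), with 2, 2, 2 and 4 at an unadjusted p under 0.05, and DESeq2 called 0 in each. For Ami50, 40 of 44 intervals lay within 2-fold in either direction, and the widest bounds allowed a 2.63-fold fall and a 1.89-fold rise. In data simulated for this comparison the test recovered 68.7% of genes changed 2-fold, against 94.0% for Ami50 at PD16. The changed genes were drawn at random from all genes tested, so these shares do not give the recovery at the levels of the mitosis genes. Cdk1 ran from 79.2 to 121 CPM (median 101) in GD21 vehicle and from 67.7 to 158 CPM (median 97.6) in GD21 Ami50, so the ranges overlapped.

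The treatment effect differed between the labelled stages for amitrole by the interaction term, and for methimazole no difference was called. The interaction was called lower for 30 of 43 genes with Ami25 (15.4% of all 6287 genes) and for 31 of 43 with Ami50 (16.4%), and higher for 0. For MMI8 and MMI16 it was called for 0 of 43 in either direction (4.53% and 5.22% of all genes), with 2 and 1 at an unadjusted p under 0.05 and 0 by DESeq2. For each of these doses 36 of 43 intervals lay within 2-fold in either direction. The widest bounds reached 3.22-fold lower for MMI8 and 8.54-fold higher for MMI16, so a difference is not excluded. The interaction with Ami50 was -1.30 ± 0.23 (log2, SE, edgeR adjusted p 2.11e-06) for Ccnb1, -0.97 ± 0.16 for Cdk1 and -0.82 ± 0.17 for Stmn1. Of the 5 condensin and chromatin genes 0 were called in it by edgeR or DESeq2, and 0 had an unadjusted p under 0.05.

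Between the labelled stages, most of the genes rose in 3 treatments and none was called in the other 2, with directions that rest on the stage labels. Of 43 genes, 36 rose in vehicle (24.4% of all genes), 35 in MMI8 (22.4%) and 38 in MMI16 (22.6%), and none fell (22.1%, 26.3% and 24.4% of all genes did). The 36 include Cenpa and Kif23, low genes that may have passed the filter only through groups in which they are high. In Ami25 and Ami50 0 of 43 were called (11.2% and 7.86% of all genes were, in either direction), with 3 and 2 at an unadjusted p under 0.05 and 0 by DESeq2. In Ami50 39 of 43 intervals lay within 2-fold in either direction, and the median log2 difference was 0.14, against 0.05 for all genes. In vehicle the median was 0.97, against 0.04. The CPM ranges of PD16 and GD21 vehicle did not overlap for 25 of 43 genes (11% of all genes lay wholly above at PD16).

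**Figure D5:**
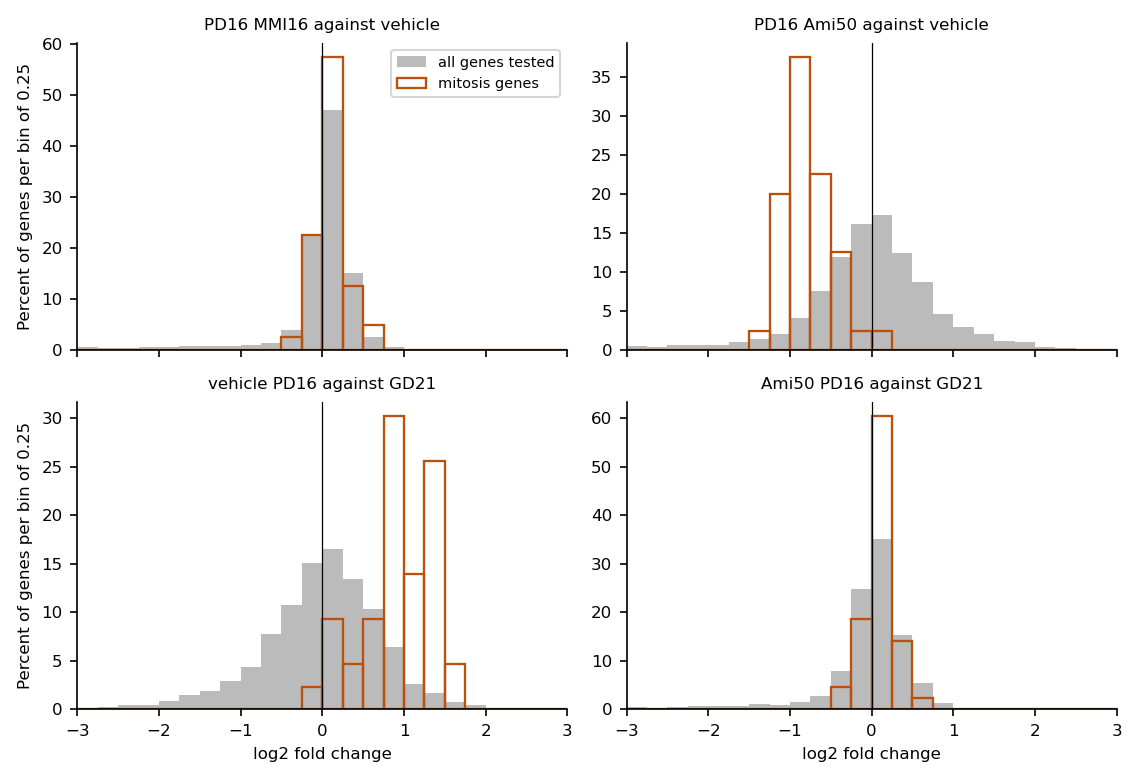
Share of genes (vertical axes, percent per bin of 0.25) by log2 fold change (horizontal axes) for all genes tested (grey) and for the mitosis genes (orange outlines) in 4 comparisons. The outlines centre near -0.87 for Ami50 against vehicle at PD16 and near 0.97 for vehicle PD16 against GD21, and near 0 in the other panels.

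Cdc25b, a phosphatase that activates CDK1, ran in the opposite direction to most of the genes. It was measured at 0 to 7.71 CPM (median 1.93) in PD16 vehicle, 0 to 5.71 CPM (median 2.31) in MMI8, 0 to 8.28 CPM (median 4.16) in MMI16, 6.05 to 20.1 CPM (median 9.07) in Ami25, 2.01 to 13.9 CPM (median 8.83) in Ami50 and 3.67 to 9.52 CPM (median 8.37) in GD21 vehicle. These are few counts, 17 in all of PD16 vehicle and 53 in all of Ami50, and the gene was under the count filter at PD16 and over both stages. With no filter it was higher in Ami25 (log2 fold change 1.87 ± 0.37, SE, edgeR adjusted p 1.5e-05) and in Ami50 (1.63 ± 0.38, adjusted p 0.00027) than in PD16 vehicle, and lower at PD16 than at GD21 in vehicle (-1.64 ± 0.38, adjusted p 0.000318). It was tested at GD21 and not called there. The other genes left out by the filter at PD16 were Cdc25c, Cenpa, Hmmr, Racgap1, Kif23 and Hmgb2. With no filter Cenpa was lower in Ami25 (log2 fold change -1.41) and Ami50 (-0.96), Racgap1, the partner of KIF23, was lower in Ami50 (adjusted p 0.00809), and Hmmr, a spindle pole protein, was lower in Ami25 (-1.64), as was Kif23 (-0.94, adjusted p 0.00798), while Cdc25c passed in none of these.

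Other genes of the cell cycle were counted beside these, from lists chosen for their function with earlier results of these data known. Of all genes tested, 26.5% fell and 27.1% rose in Ami50 at PD16, and 24.4% rose and 22.1% fell between stages in vehicle. Of other kinetochore, spindle and cytokinesis genes, 16 of 18 tested fell in Ami50 at PD16 and 20 of 25 rose between stages in vehicle, and none went the other way. The largest changes were in Mis18a, which loads CENP-A (-1.89 ± 0.25, log2 fold change and SE), Cenpt (-1.37 ± 0.29) and Cdca2 (-1.33 ± 0.21) for Ami50, and in Ccnf (1.69 ± 0.31), Tacc3 (1.64 ± 0.16) and Kif18b (1.55 ± 0.27) between stages. DNA replication genes fell for 22 of 23 in Ami50 and rose for 22 of 24 between stages, and 1 of 23 rose in Ami50. The largest falls were in Mcm4 (-3.25 ± 0.13), Rrm2 (-2.96 ± 0.22) and Gins1 (-1.36 ± 0.18), and the largest stage differences in Mcm6 (1.79 ± 0.15), Gins1 (1.69 ± 0.20) and Rrm2 (1.54 ± 0.28). Mcm4, of the replicative helicase, and Rrm2, of ribonucleotide reductase, were also lower in MMI8 (-1.68 ± 0.12 and -1.33 ± 0.21) and MMI16 (-2.04 ± 0.12 and -1.99 ± 0.22), the only called genes of their list there.

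Lists that act ahead of or beside mitosis were mixed, and the shares of cohesin, of the kinase inhibitors and of the anaphase-promoting complex subunits called in Ami50 were near or below those of all genes. Of G1 cyclins and kinases, 4 of 6 fell and 1 rose in Ami50, with Ccne1 at -0.87 ± 0.28, Ccne2 at -0.80 ± 0.18 and Ccnd2, the cyclin D2 that rose, at 0.86 ± 0.14. Between stages 5 of 6 rose and Ccnd2 fell, with Ccne2 at 1.19 ± 0.21, Ccne1 at 1.09 ± 0.28 and Ccnd2 at -1.07 ± 0.18. Of the subunits of the anaphase-promoting complex itself, 3 of 11 fell and 1 rose in Ami50 (Anapc13 0.67 ± 0.07, Cdc23 -0.66 ± 0.19, Cdc26 -0.53 ± 0.11), and 7 of 12 rose and 1 fell between stages (Cdc23 1.19 ± 0.21, Cdc26 0.87 ± 0.13, Anapc5 0.77 ± 0.15). Of cohesin, which holds sister chromatids together, 1 of 5 fell in Ami50 and 1 of 6 rose between stages, in both cases Smc3 (-0.71 ± 0.16 and 0.57 ± 0.16). Condensin II had 1 gene tested at PD16, which was not called, and 1 of 2 called higher between stages (Ncaph2, 0.46 ± 0.19). Of the regulators of the G2 and M programme 2 were tested at PD16, of which Lin37, of the MuvB core, rose in Ami50 (0.68 ± 0.12). Between stages 4 of 6 rose and 2 fell, with Wee1 at 0.99 ± 0.36, E2f1 at 0.95 ± 0.35 and Mybl2, the B-MYB that joins MuvB, at 0.91 ± 0.32. Of cyclin-dependent kinase inhibitors and antiproliferative genes, 1 of 5 fell and 1 rose in Ami50 (Tob1 -3.06 ± 0.19 and Ccng1 0.84 ± 0.22), and 0 of 6 were called between stages (0 at an unadjusted p under 0.05, and 0 by DESeq2). Tob1 was also lower in MMI8 (-2.02 ± 0.19) and MMI16 (-3.43 ± 0.21), where the mitosis genes were not called. Mis18a was lower in MMI16 as well (-0.98 ± 0.23).

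Markers of other cells also differed between PD16 vehicle and Ami50, and their part in the result was not tested. Their counts in Ami50 stand beside the 27.1% of all genes that rose there and the 26.5% that fell. Nucleated red cell precursors, which divide, had a summed level over 10 genes of 604 ± 119 CPM in PD16 vehicle, 775 ± 275 in MMI16, 1457 ± 412 in Ami50 and 1412 ± 481 in GD21 vehicle, and 4 of 5 tested genes rose in Ami50. The 16 leukocyte genes summed to 247 ± 30.8 CPM in PD16 vehicle, 188 ± 34.5 in MMI16 and 602 ± 204 in Ami50, and 10 of 11 tested rose in Ami50 while 1 fell. The 10 endothelial genes summed to 719 ± 97.1 CPM in PD16 vehicle, 379.6 ± 82.0 in MMI16 and 279 ± 49.4 in Ami50, and 5 of 9 tested fell in Ami50. The endothelial sum was lower than in vehicle in both MMI16 and Ami50. The 9 adrenal cortex genes summed to 20023 ± 2509.9 CPM in PD16 vehicle, 23078 ± 6578 in MMI16 and 47868 ± 12994 in Ami50, and 7 of 7 tested rose in Ami50. No gene of these 4 lists was at 0 over all libraries. The 9 liver genes summed to between 43.8 and 28041 CPM, and the summed level of the mitosis genes was 2620.0 to 3147 CPM in the 3 Ami50 libraries whose Alb reached 200 CPM and 2200.1 to 3165 in the other 9. In the 8 Ami50 libraries with Eif2s3y under 10 CPM it was 2427 to 3165 CPM, and in the other 4 2200.1 to 3147.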

How the data were processed

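The deposited table held raw read counts per gene symbol for 83 libraries and 17483 symbols, and every column matched 1 sample's labels. Per the submitters' processing notes the reads were aligned with BWA 0.7.4.4 to the rat build rn6, and the authors deposited the counts with no normalization. Counting is at 3′ ends, so paralogs and overlapping genes sharing sequence there are uncertain, and whether strand was used is not given in the sources used here.

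Counts were analysed with edgeR 4.0.16 in R 4.3.3 (TMM scaling, filterByExpr with a minimum count of 10, robust glmQLFit, glmQLFTest), with 1 fit over the 30 GD21 libraries, 1 over the 53 PD16 libraries and 1 over all 83 for stages and interactions. The 20 comparisons had p-values adjusted by the Benjamini-Hochberg method over all genes tested, and a gene was called at an adjusted p under 0.05. CPM were computed on total counts, scaled to 1000000 per library. DESeq2 1.42.0 and 9 other settings served as alternatives. Intervals are at 95%.

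The members and lists were chosen with earlier results of these data known. The text names the 3 genes of each role class with the highest mean CPM over all libraries, other members called in a PD16 comparison with vehicle or in the vehicle stage comparison, and up to 3 called genes per pathway list by size of change. Other named genes were picked after their values were seen.

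On simulated counts for Ami50 against vehicle at PD16 (4906 genes, 200 of them changed), 71.6% of genes changed 1.5-fold, 94.0% of those changed 2-fold and 100% of those changed 3-fold were recovered, and 6.35% of calls were false. For the same comparison at GD21 (6236 genes) the shares were 13.4%, 68.7% and 95.5%, with 3.28% of calls false. No 2 libraries of a group agreed within sampling noise over 331 pairs (lowest chi-square per degree of freedom 1.56).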

Additional observations from a re-analysis of the deposited data

Results flagged for a closer look

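Of 200 checks for a library that stood apart from its group in the summed level or in a named gene, 13 did so (gap to the nearest library over the whole range of the group, against Dixon's 95% critical value), and chance alone flags about 1 in 20 groups. Groups of more than 10 libraries were not checked. The summed level was 2950 CPM in library 61 of GD21 vehicle, the highest of its 6. Mki67 was 198 CPM in library 10 of PD16 MMI16, which had the fewest counts of all, and 71.6 CPM in library 47 of GD21 MMI16. The same library 47 had Birc5 at 80.6 CPM. Cenpw was 70.5 CPM in library 49 of GD21 MMI16 and 98.8 CPM in library 64 of PD16 MMI8. Aurka was 149 CPM in library 88 of GD21 Ami50 and 223 CPM in library 27 of PD16 MMI8. Single genes stood apart in the other libraries: Cdc20 at 148 CPM in library 9 and Spc25 at 32.5 CPM in library 12 of PD16 MMI16, Prc1 at 82.8 CPM in library 51 of GD21 Ami25, Smc4 at 66.7 CPM in library 58 of PD16 vehicle, and Cdca8 at 76.9 CPM in library 68 of GD21 MMI8.

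The effect of amitrole differed between the labelled stages by the interaction term of edgeR's quasi-likelihood test, for 30 of 43 genes with Ami25 and 31 of 43 with Ami50. For Ami50 the interaction (log2) was -1.30 for Ccnb1, -0.97 for Cdk1 and -0.82 for Stmn1. The embryonic globin share differed between the same groups, and its part in the interaction was not tested.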

How the results depend on the processing

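No paired analysis was possible because the library numbers in the labels are unique and pair no libraries across groups. Of 200 counts of called genes (20 comparisons under 10 alternatives), 196 stayed within 1.5 times the value given. The other 4 went from 0 to 1, in each case Hmgb2 called higher with MMI16. At PD16 this was with a minimum count of 3 (1 gene, adjusted p 0.0315) and without the libraries with Eif2s3y under 10 CPM (1 gene, adjusted p 0.0194). In the interaction of stage and MMI16 it was without shallow libraries (1 gene, adjusted p 0.0374) and without the library farthest from its group in each group (1 gene, adjusted p 0.0361). Over these alternatives the count of genes called at PD16, in either direction, ran from 37 to 43 in Ami25 and from 31 to 39 in Ami50. The count between stages in vehicle ran from 33 to 37. With no filter these counts include Cdc25b, which was higher in both amitrole groups and lower between stages. Of 1200 values of named genes, 1196 kept their direction and side of the threshold. Smc2 in Ami50 passed with a minimum count of 3 (log2 fold change -0.38, adjusted p 0.0496) and with the number series as a covariate (-0.37, adjusted p 0.0494). Smc4 in Ami50 no longer passed without the libraries with low Eif2s3y (-0.42, adjusted p 0.156), and the stage difference of Mki67 passed without those with high Alb (0.71, adjusted p 0.0223). The cause was not tested. Depth limits the low genes: at the median PD16 total 1 count is 2.03 CPM, and 7 of the 47 genes were under the count filter there.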
